A study of Mus musculus with 36 samples.

Results

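The 10 genes Per2, Per3, Cry1, Cry2, Arntl (also called Bmal1), Clock, Nr1d1, Nr1d2, Dbp and Tef, which build the mammalian circadian clock or are driven directly by it, were followed through RNAseq libraries of cultured mouse cortical cells. They were chosen by symbol. All 10 were among the 55492 entries of the counts table, and all 10 passed the filter on low counts (a mean above 5 counts per library), which left 20355 genes. The cells were dissociated from mouse cortex at embryonic day 18 (the commercial preparation C57EDCX). The sources used here name no engineered allele. Control cultures received fresh medium, DEX cultures received 1 µM dexamethasone, a glucocorticoid receptor agonist, and DEX + RU-486 cultures received 1 µM dexamethasone with 1 µM mifepristone, an antagonist of the same receptor, each for 72 h. Each group had 12 libraries, 6 in each of 2 batches named in the labels. None of the 36 libraries came from cultures given RU-486 without DEX. The sources used here give neither the sex of the embryos nor the time of day at which cells were collected, so a level cannot be placed on a clock phase.

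In the clock, ARNTL and CLOCK pair up and bind E-box sequences, switching on the Per and Cry genes, whose proteins return to repress that pair. A second loop runs through NR1D1 and NR1D2 (REV-ERBα and REV-ERBβ), nuclear receptors that repress Arntl, and DBP and TEF are output factors that bind D-box sequences. Cells in culture keep such loops individually, but a dish that has not been synchronised averages over cells in different phases. Here the medium was replaced at the start of treatment, and the treatments were replenished within the 72 h. Whether this or DEX aligned the phases of the cells was not tested. A difference between groups in phase therefore cannot be told apart from one in mean level. Glucocorticoids are a known signal between the central clock and other tissues, and Per1 and Per2 are known targets of their receptor.

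The sequences below show which of the letters that these factors read lie near the genes. The RefSeq promoter table (GRCm38.p6, 250 bases before to 50 after each start) held 13 promoters of 9 of the 10 genes and none of Per2. Both strands were searched. The E-box CACGTG was found in 3 of the 13 promoters, against 7.15% of all 32851 promoters, and the D-box TTATGTAA in 1, against 0.938%. Starts are those of RefSeq, and for Tef the GENCODE gene, whose coordinates are given further on, begins upstream of both. Windows of 30 bases are given 5′ to 3′ on the strand of the gene, with the motif in capitals.
Cry1, E-box 60 bases before the start, chr10:85185097-85185126, minus strand: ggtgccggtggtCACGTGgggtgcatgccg
Tef, E-box 127 bases before the first start, chr15:81802534-81802563, plus strand: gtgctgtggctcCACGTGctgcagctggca
Tef, E-box 138 bases before the second start, chr15:81811264-81811293, plus strand: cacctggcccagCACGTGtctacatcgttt
Per3, D-box 205 bases before the start, chr4:151044852-151044881, minus strand: cgacccgcgcgTTATGTAAggtactcgggg
Per3, D-box 158 bases before the start, chr4:151044805-151044834, minus strand: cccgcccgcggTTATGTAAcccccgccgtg
The letters TAGGTCA, which REV-ERB proteins and their ROR competitors bind, occurred in 1 of the 13 promoters, that of Arntl, and in 2.61% of all promoters. The cAMP response element TGACGTCA was in 0 of the 13 and in 1.79% of all. The letters AGAACA with their reverse complement after 3 bases, a form of the glucocorticoid response element, were in 0 of the 13 and in 0.00913% of all. At so low a share a 0 among 13 promoters, with Per2 not among them, tells nothing about receptor sites near these genes. A match describes these windows and is not a measured binding site.

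The libraries held 12.1 to 82.4 M (mega) counts each. RNA integrity number (RIN), a score of how intact the RNA is, and depth went with treatment in batch 1: controls had a RIN of 7.8 to 9.2 and 24.2 to 82.4 M counts, DEX libraries 3.9 to 7.8 and 12.1 to 22.3 M, and DEX + RU-486 libraries 5.6 to 7.9 and 17.4 to 26.7 M. Batch 2 held 2 libraries with a RIN under 3 in each group, and its other 12 libraries had a RIN between 7.4 and 8.7. Markers of cell types also moved with treatment in batch 1. The summed CPM (counts scaled to a common library total) of 5 oligodendrocyte lineage markers was 57.2 to 269 in controls, 455 to 2083 in DEX and 208 to 895 in DEX + RU-486. That of 5 progenitor markers was 6.81 to 31.7, 30.6 to 168 and 19.9 to 149, and that of 5 astrocyte markers 11.5 to 19.4, 16.7 to 28.7 and 16.3 to 37.8. In DEX, 4 of 5, 5 of 5 and 3 of 5 of these markers were higher, 5 of 7 neuron markers were lower (2448 to 3196 CPM in controls, 1815 to 2737 in DEX, 2040 to 2775 in DEX + RU-486), and 1 of 4 vessel markers was higher. In DEX + RU-486, 3 of 5, 5 of 5 and 2 of 5 were higher, 3 of 7 neuron markers were lower and 2 of 4 vessel markers were higher. Of all genes, edgeR called 9.61% higher and 10.2% lower in DEX, and 7.72% and 8.77% in DEX + RU-486. The 3 microglial markers that passed the filter on low counts, of 5 listed, summed to at most 4.65 CPM in any library. The part of RIN, depth and cell composition in the batch 1 differences below was tested only where a value is given. In such bulk libraries fewer cells of a type and less RNA per cell cannot be told apart.

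Between the clock genes the levels spread widely. Per kilobase of exon, over the 12 control libraries (mean ± SD, RPKM), the cryptochrome Cry2 was highest at 12.9 ± 2.26, followed by Tef at 8.35 ± 1.91 and Cry1 at 6.31 ± 1.15. Per2 stood at 3.17 ± 0.907, Clock at 2.69 ± 0.539, Nr1d1 at 2.33 ± 0.510 and Nr1d2 at 1.82 ± 0.645. Arntl (1.59 ± 0.379) and Dbp (1.36 ± 0.281) were lower still, and Per3 was lowest at 0.492 ± 0.203. From Per2 down to Dbp, neighbours in this order differed by less than the larger of their SDs. In the batch 2 controls alone Tef (6.62 ± 0.837) and Cry1 (6.20 ± 1.18) were close. In those of batch 1 Arntl (1.83) stood above Nr1d2 (1.80). Per3 had between 30 and 505 counts and Dbp between 36 and 451 in control libraries.

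**Figure D1:**
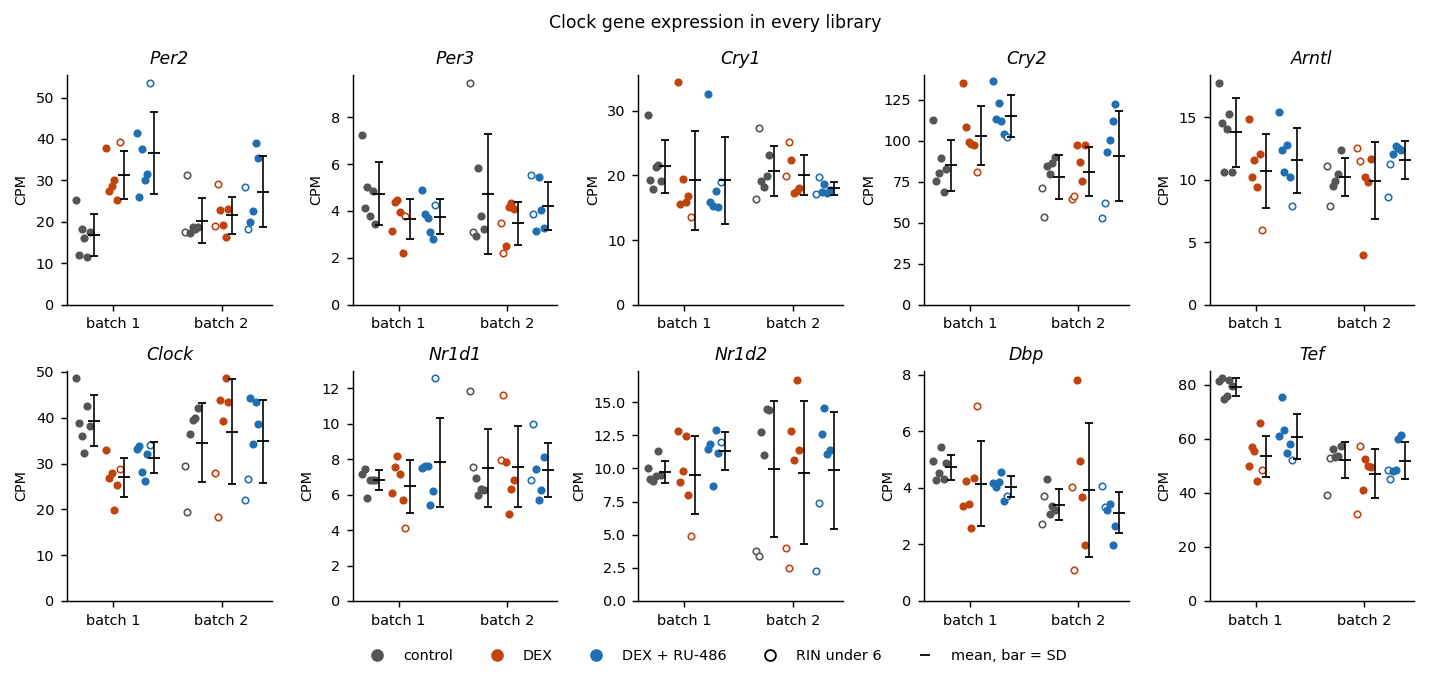
CPM (TMM-scaled, linear axis from 0) of each clock gene in the 36 libraries, by batch and group; each point is 1 library, open points have a RIN under 6, and the bar is the mean ± SD of 6 libraries. Per2 in batch 1 is higher in both treated groups than in all controls, Tef in batch 1 is lower in DEX than in all controls, and the open points of batch 2 lie low for Nr1d2, Clock and Cry2.

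DEX was compared with control first, to ask whether the glucocorticoid moved the clock genes. In batch 1, Per2 rose 1.93-fold, Tef fell 1.44-fold and Clock fell 1.41-fold, while the other 7 genes did not pass the test. In batch 2 none of the 10 passed. At an adjusted p under 0.05, edgeR called 9.61% of the 19075 genes tested in batch 1 higher and 10.2% lower in DEX, so 1 of 10 clock genes higher and 2 of 10 lower lie near the share among all genes. The median log2 fold change was -0.12 over the clock genes and 0.05 over all genes. In batch 2 the share called was 0% of 21682 genes, by edgeR and by DESeq2 alike, with 467 genes and 0 clock genes at an unadjusted p under 0.05 in edgeR.

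The same comparison was made for DEX + RU-486. In batch 1, Per2 rose 2.24-fold, Cry2 rose 1.39-fold and Tef fell 1.28-fold. Of all genes, 7.72% were called higher and 8.77% lower, against 2 and 1 of the 10 clock genes. In batch 2 the share called was 0%, with 179 genes at an unadjusted p under 0.05, 1 of them a clock gene (Per2), and 1 gene called by DESeq2, which was no clock gene.

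The antagonist group was compared with DEX to ask whether the antagonist undid the change. No clock gene was called in batch 1 (0% of all genes called, 762 genes and 0 clock genes at an unadjusted p under 0.05, 2 genes called by DESeq2) or in batch 2 (0% called, 450 genes and 0 clock genes, 1 gene called by DESeq2). In batch 1 Per2 was 0.21 ± 0.19 (log2 fold change ± SE) above its DEX level when the antagonist was present, and Tef was 0.17 ± 0.10 above its DEX level. Leaving out 1 library moved Per2 between 0.066 (without DEX + RU-486 library 18) and 0.30 (without DEX + RU-486 library 14). It moved Tef between 0.11 (without DEX + RU-486 library 14) and 0.23 (without DEX library 11). With libraries of RIN 6 or above, 2 clock genes were higher and 1 lower in batch 2 at an unadjusted p under 0.05 (edgeR), beside 19.1% of all genes. In batch 1 there were 0, beside 5.89%, and over both batches 3 were higher, beside 8.98%. With RIN as a covariate in batch 1, 2 were higher, beside 5.77%. No clock gene was called in these fits.

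**Figure D2:**
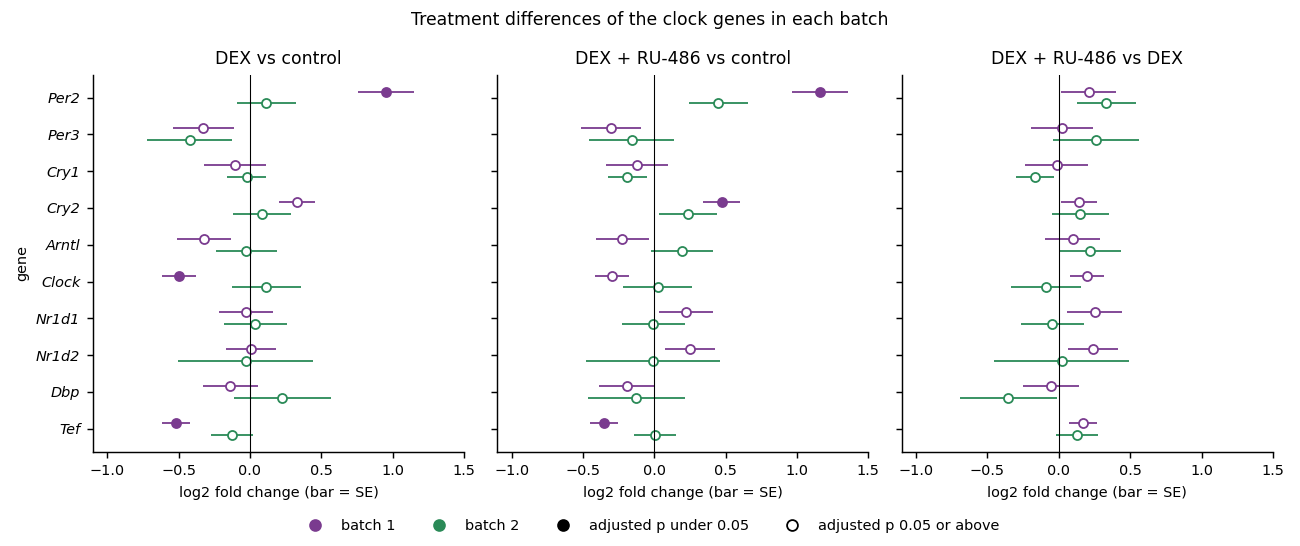
Log2 fold changes (x axis, bar = SE) of the 10 clock genes for the 3 comparisons, with batch 1 in purple and batch 2 in green; filled points have an edgeR adjusted p under 0.05. Filled points are Per2, Clock and Tef for DEX and Per2, Cry2 and Tef for DEX + RU-486 against control, all of them in batch 1.

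The period genes encode the proteins whose accumulation times the repressive arm. Per2 (ENSMUSG00000055866, chr1:91415982-91459324, minus strand, GRCm38) ranged in batch 1 from 11.4 to 25.2 CPM in controls (median 16.9), from 25.3 to 39.3 CPM in DEX (median 29.3) and from 25.9 to 53.5 CPM in DEX + RU-486 (median 34.6). Both treated groups lay wholly above the controls, although the highest control library reached almost to the lowest DEX library. A complete separation upward was seen for 3.2% of all genes in DEX and 1.99% in DEX + RU-486. The log2 fold change was 0.95 ± 0.20 (SE) in DEX (edgeR adjusted p = 0.0025) and 1.16 ± 0.20 in DEX + RU-486 (edgeR adjusted p = 0.0015). In batch 2 the 3 groups overlapped, with 17.2 to 31.3 CPM in controls (median 18.5), 16.2 to 29.2 CPM in DEX (median 20.99) and 18.3 to 39.1 CPM in DEX + RU-486 (median 25.5). There the log2 fold change was 0.11 ± 0.21 in DEX and 0.45 ± 0.21 in DEX + RU-486 (unadjusted p = 0.044, edgeR adjusted p = 1). Leaving out 1 library moved this DEX value between 0.0078 (without DEX library 26) and 0.26 (without control library 20).

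Within the groups of batch 1, Per2 was higher where RIN was lower. With each group's mean removed from both measures, Pearson's r between RIN and log2 CPM over the 18 libraries was -0.764 and Spearman's rho -0.868. The permutation p of each was 1e-05, the smallest that 100000 resamples within groups can give, and 0.0002 after adjustment over 20 relations (10 genes in 2 sets of libraries). Without the 2 libraries farthest in RIN, r was -0.837. With RIN as a covariate the DEX difference of Per2 in batch 1 was 0.37 ± 0.18 (edgeR adjusted p = 0.27) and the DEX + RU-486 difference 0.68 ± 0.17 (edgeR adjusted p = 0.036). Over the 12 batch 2 libraries of RIN 6 or above the sign was opposite and the relation did not pass (r = 0.698, permutation p = 0.248, rho = 0.580, permutation p = 0.256, r = 0.478 without the 2 farthest). The 2 highest Per2 levels there, 39.1 and 35.5 CPM, were in DEX + RU-486 libraries of RIN 8.7 and 8.5. None of the other 19 relations with RIN passed. Without the 2 libraries farthest in RIN, r in batch 1 went from -0.124 to -0.647 for Cry1 and from 0.061 to -0.691 for Cry2.

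Per3 (chr4:151003652-151044665, minus strand) is a weaker timekeeper than Per2 in mice. Its batch 1 levels were 3.46 to 7.24 CPM in controls (median 4.48), 2.21 to 4.45 CPM in DEX (median 3.87) and 2.80 to 4.87 CPM in DEX + RU-486 (median 3.76), and the groups overlapped. DEX gave -0.33 ± 0.21 on the log2 scale in batch 1. The batch 2 value, -0.42 ± 0.30, rested on control library 19, of RIN 2.7, which held 9.46 CPM, and it was -0.11 ± 0.26 without that library. Neither value passed.

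The cryptochromes are the partners of the period proteins in the repressor. Cry2 (chr2:92403646-92434043, minus strand) ranged in batch 1 from 68.5 to 113 CPM in controls (median 81.6), from 81.0 to 135 CPM in DEX (median 98.5) and from 102 to 136 CPM in DEX + RU-486 (median 113). The groups overlapped, since control library 1, at 113 CPM, lay above 5 of the 6 DEX libraries. Cry2 was 0.47 ± 0.13 higher (log2 fold change) in DEX + RU-486 (edgeR adjusted p = 0.017). In DEX the value was 0.33 ± 0.13, with an adjusted p of 0.072 by edgeR and of 0.042 by DESeq2. Leaving out control library 1 or DEX library 12 took the DEX value past the threshold (edgeR adjusted p = 0.024 and 0.039), as did keeping the libraries of RIN 6 or above (0.38, edgeR adjusted p = 0.033), and leaving out control library 2 took the DEX + RU-486 value to 0.051. With RIN as a covariate the DEX + RU-486 value was 0.46 ± 0.16 (edgeR adjusted p = 0.10). In batch 2 the differences were 0.08 ± 0.20 and 0.23 ± 0.20.

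Cry1 (chr10:85131700-85185064, minus strand), the stronger repressor of the pair, did not pass the test. Batch 1 levels were 17.9 to 29.3 CPM in controls (median 20.3), 13.5 to 34.5 CPM in DEX (median 16.3) and 15.1 to 32.7 CPM in DEX + RU-486 (median 16.8), and its log2 fold changes were -0.11 ± 0.22 and -0.12 ± 0.22. Leaving out 1 library moved them between -0.36 (without DEX library 7) and -0.016 (without control library 1), and between -0.34 (without DEX + RU-486 library 13) and -0.024 (without control library 1). In batch 2 they were -0.02 ± 0.14 and -0.19 ± 0.14.

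Of the activating pair, Clock (chr5:76209868-76304792, minus strand), a histone acetyltransferase and the DNA-binding partner of ARNTL, fell in batch 1. It ranged from 32.2 to 48.6 CPM in controls (median 38.5), from 19.8 to 33.01 CPM in DEX (median 27.4) and from 26.3 to 34.1 CPM in DEX + RU-486 (median 32.7). Of the DEX libraries, 1 lay above the lowest control. The log2 fold change was -0.50 ± 0.12 in DEX (edgeR adjusted p = 0.0069), and with RIN as a covariate it was -0.68 ± 0.15 (edgeR adjusted p = 0.022). In DEX + RU-486 it was -0.30 ± 0.12 (edgeR adjusted p = 0.087). In batch 2 the values were 0.11 ± 0.24 and 0.02 ± 0.24, with levels of 19.4 to 42.2 CPM in controls, 18.4 to 48.7 CPM in DEX and 22.04 to 44.3 CPM in DEX + RU-486.

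Arntl (chr7:113207465-113314126, plus strand), the partner without which the loop stops, ranged in batch 1 from 10.6 to 17.7 CPM in controls (median 14.3), from 6.004 to 14.9 CPM in DEX (median 10.9) and from 7.86 to 15.4 CPM in DEX + RU-486 (median 11.5). The groups overlapped. Its log2 fold changes were -0.32 ± 0.19 in DEX (edgeR adjusted p = 0.25) and -0.22 ± 0.19 in DEX + RU-486. Batch 2 gave -0.03 ± 0.21 and 0.19 ± 0.21.

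The REV-ERB genes did not pass the test in any comparison of treatments. Nr1d1 (chr11:98767932-98775333, minus strand) had medians of 6.83, 6.61 and 7.53 CPM in control, DEX and DEX + RU-486 of batch 1, and Nr1d2 (chr14:18204054-18239127, minus strand) had medians of 9.46, 9.40 and 11.7 CPM. The DEX log2 fold changes in batch 1 were -0.03 ± 0.19 and 0.01 ± 0.17. In batch 2 they were 0.04 ± 0.22 for Nr1d1 and -0.03 ± 0.47 for Nr1d2, whose SE was the largest of the 10 genes. Nr1d1 shares 263 exonic bases (8.55% of its exons) with Thra on the opposite strand, a thyroid hormone receptor gene with a median of 19652.5 counts against 183.5 for Nr1d1. Whether reads were counted by strand is not given in the sources used here, so reads of both genes cannot be told apart there.

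Tef (chr15:81802421-81826863, plus strand), an output factor of the PAR bZIP family, gave the tightest batch 1 controls, 74.8 to 82.4 CPM (median 80.6). The DEX libraries ranged from 44.4 to 65.9 CPM (median 52.6) and lay wholly below them, as did 6.66% of all genes. The DEX + RU-486 libraries ranged from 52.3 to 75.3 CPM (median 59.6), and 1 of them overlapped the controls. For DEX + RU-486 5.16% of all genes lay wholly below. The log2 fold change was -0.52 ± 0.10 in DEX (edgeR adjusted p = 0.0016) and -0.35 ± 0.10 in DEX + RU-486 (edgeR adjusted p = 0.019). With RIN as a covariate these became -0.37 ± 0.12 (edgeR adjusted p = 0.093) and -0.23 ± 0.11 (edgeR adjusted p = 0.22). In batch 2 Tef had medians of 53.5, 49.7 and 48.4 CPM, and the log2 fold changes were -0.13 ± 0.15 in DEX and 0.00 ± 0.15 in DEX + RU-486.

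Dbp (chr7:45705088-45710203, plus strand), the relative of Tef with the larger daily rhythm in many tissues, was low. Batch 1 levels were 4.28 to 5.43 CPM in controls (median 4.70), 2.58 to 6.89 CPM in DEX (median 3.84) and 3.55 to 4.56 CPM in DEX + RU-486 (median 4.11). On the log2 scale DEX gave -0.14 ± 0.19 there and 0.23 ± 0.34 in batch 2, neither past the threshold. Leaving out 1 library moved the batch 1 value between -0.34 (without DEX library 12) and -0.035 (without DEX library 10). Of the exons of Dbp 18.0% (539 bases) lie opposite exons of Sphk2, which had a median of 206 counts against 87 for Dbp, so its counts carry the same doubt as those of Nr1d1.

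Over both batches, with batch as a covariate, none of the clock genes passed. The share of all genes called was 0.0246% (5 genes) for DEX, 0% for DEX + RU-486 against control (2203 genes at an unadjusted p under 0.05, 121 called by DESeq2) and 0% for DEX + RU-486 against DEX (545 genes at an unadjusted p under 0.05, 2 called by DESeq2). For DEX, 16.9% of all genes and 3 of the 10 clock genes had an unadjusted p under 0.05: Tef (-0.36 ± 0.09, edgeR adjusted p = 0.079), Per2 (0.49 ± 0.16, edgeR adjusted p = 0.12) and Per3 (-0.41 ± 0.18, edgeR adjusted p = 0.24), which was -0.25 without control library 19. For DEX + RU-486 against control there were also 3: Per2 (0.76 ± 0.16, edgeR adjusted p = 0.12), Cry2 (0.33 ± 0.12, edgeR adjusted p = 0.29) and Tef (-0.20 ± 0.09, edgeR adjusted p = 0.43). Between DEX + RU-486 and DEX there were 0. DESeq2 called 457 genes for DEX, Tef among them (-0.32 ± 0.09, adjusted p = 0.026), and Per2 for DEX + RU-486 against control (0.79 ± 0.17, adjusted p = 0.0060).

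These counts changed when the degraded libraries were left out. Among the 28 libraries of RIN 6 or above, Per2 was higher in DEX (0.55 ± 0.14, edgeR adjusted p = 0.0070) and Tef lower (-0.39 ± 0.08, edgeR adjusted p = 0.0010), where 8.06% of 20016 genes were called higher and 12% lower. In DEX + RU-486 against control Per2 (0.87 ± 0.14, edgeR adjusted p = 0.0011) and Cry2 (0.42 ± 0.09, edgeR adjusted p = 0.0034) were higher, where 3.09% of genes were called higher and 6% lower. With batch 2 alone at this RIN no clock gene was called, of 116 genes called for DEX, 1 for DEX + RU-486 against control and 314 for DEX + RU-486 against DEX, out of 20652: Per2 was 0.17 ± 0.18 in DEX (edgeR adjusted p = 0.68) and 0.69 ± 0.18 in DEX + RU-486 (edgeR adjusted p = 0.52), Tef was -0.18 ± 0.10 in DEX (edgeR adjusted p = 0.35), and Cry2 was 0.34 ± 0.10 in DEX + RU-486 (edgeR adjusted p = 0.52). Leaving out only control library 20, of RIN 1.8 and with 31.3 CPM of Per2, took Per2 in DEX to 0.60 (edgeR adjusted p = 0.017), Tef to -0.36 (edgeR adjusted p = 0.023) and Per2 in DEX + RU-486 to 0.87 (edgeR adjusted p = 0.0068). In those fits 1630 genes were called for DEX and 425 for DEX + RU-486. Without control library 19, Tef in DEX was -0.39 (edgeR adjusted p = 0.033).

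The difference between the batches was itself tested. For DEX against control, where 0.172% of all genes were called (27 higher and 8 lower by edgeR, 191 and 170 by DESeq2), Per2 differed by -0.81 ± 0.29 (batch 2 minus batch 1, log2; unadjusted p = 0.0083, edgeR adjusted p = 0.21), Clock by 0.64 ± 0.27 (edgeR adjusted p = 0.29) and Tef by 0.42 ± 0.17 (edgeR adjusted p = 0.28). No clock gene was called, and these 3 had an unadjusted p under 0.05, as did 12.9% of all genes. For DEX + RU-486 against control (0.0835% of genes called) Per2 and Tef had an unadjusted p under 0.05, as did 11.9% of all genes, and for DEX + RU-486 against DEX (0% called, 466 genes at an unadjusted p under 0.05, 0 called by DESeq2) no clock gene did. Among libraries of RIN 6 or above the Clock difference for DEX was 0.73 ± 0.17 (edgeR adjusted p = 0.014), in a fit that called 775 of 20016 genes.

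Untreated cultures of the batches also differed. Tef was 1.52-fold lower in the controls of batch 2 than in those of batch 1 (log2 fold change -0.60 ± 0.12, edgeR adjusted p = 0.00074), and it was the only clock gene called, where 23.7% of all genes were (2439 higher and 2392 lower by edgeR, 3942 higher and 2118 lower by DESeq2). The 6 batch 2 controls held 39.2 to 57.4 CPM of Tef, wholly below the 74.8 to 82.4 CPM of batch 1 and within or below the range of the batch 1 DEX libraries. Arntl was -0.44 ± 0.20 and Dbp -0.47 ± 0.27, and neither passed (edgeR adjusted p = 0.12 and 0.20). In a fit of the 12 control libraries alone, chosen after the data were seen, both passed (edgeR adjusted p = 0.037 for Arntl and 0.027 for Dbp), among 6260 of 21510 genes called. The oligodendrocyte lineage and progenitor markers were higher in the batch 2 controls too (5 of 5 each). Of 7 neuron markers 5 were lower and 1 higher. Higher as well were 1 of 5 astrocyte, 1 of 3 microglial and 1 of 4 vessel markers. Their part in the Tef difference was not tested.

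RNA integrity was then compared, since it was low in some libraries of every batch 2 group. There the 6 libraries of RIN under 3 were compared with the 12 of RIN 6 or above, with group as a covariate, a comparison added after the data were seen. Nr1d2 fell 3.35-fold (log2 fold change -1.75 ± 0.20, edgeR adjusted p = 2.5e-07), Clock fell 1.75-fold (-0.81 ± 0.11, edgeR adjusted p = 2.1e-06), Cry2 fell 1.54-fold (-0.62 ± 0.10, edgeR adjusted p = 1.9e-05) and Nr1d1 rose 1.39-fold (0.47 ± 0.15, edgeR adjusted p = 0.010). Of all genes 30.5% were called higher and 25.7% lower. Nr1d2 held 2.23 to 7.37 CPM in the low RIN libraries (median 3.58) and 10.7 to 16.6 CPM in the others (median 12.7), Clock 18.4 to 29.4 CPM (median 24.3) and 34.3 to 48.7 CPM (median 41.0), and Cry2 53.1 to 71.2 CPM (median 63.2) and 75.6 to 122 CPM (median 91.7). These 3 genes did not overlap, each lower, as did 10.8% of all genes; no clock gene was higher without overlap, where 8.03% of all genes were. In this comparison the counts of the 2 REV-ERB genes thus went in opposite directions, and those of Nr1d1 carry the doubt about Thra reads given above. Per2, Per3, Cry1, Arntl, Dbp and Tef did not pass, and Per2 was 0.09 ± 0.17. The 5 oligodendrocyte lineage markers, 4 of 5 astrocyte, 3 of 5 progenitor, 4 of 4 vessel and 2 of 3 microglial markers were also higher at low RIN. Of 7 neuron markers 4 were higher and 3 lower. The part of all these markers in the differences was not tested.

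**Figure D3:**
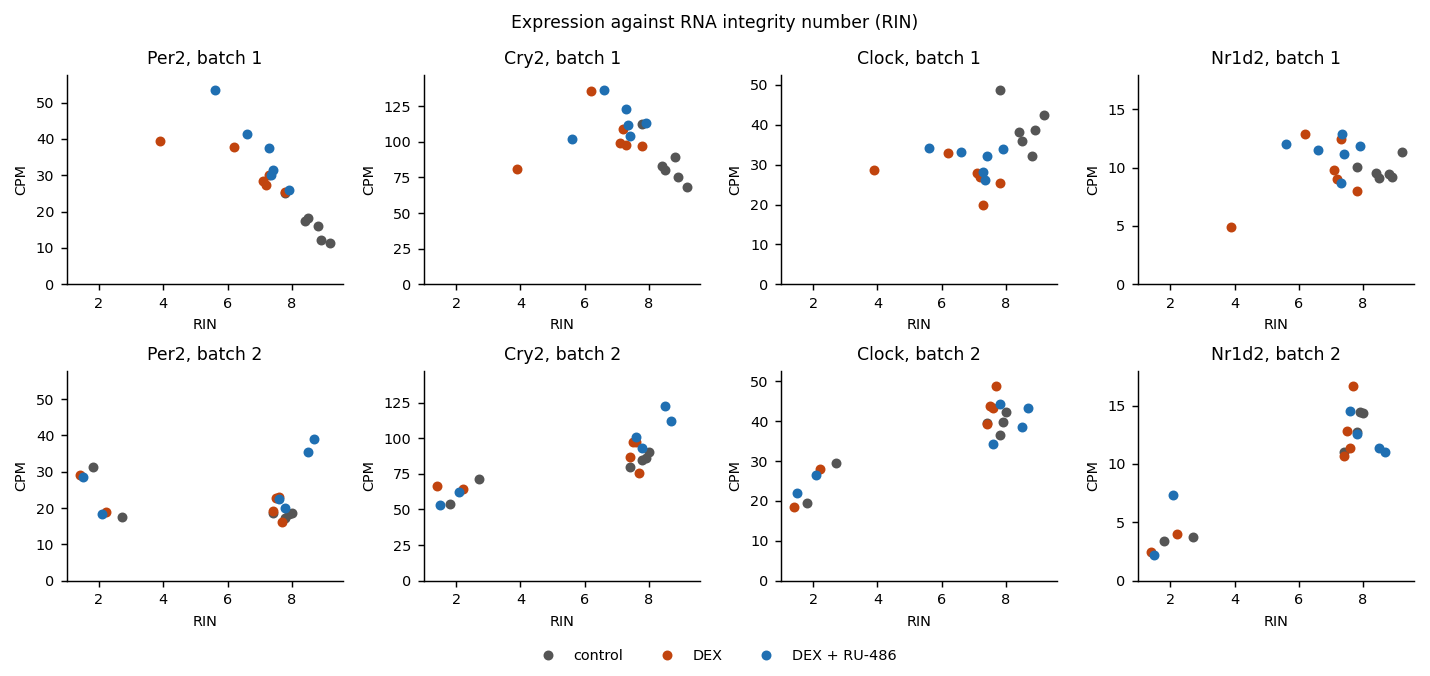
CPM against RIN for Per2, Cry2, Clock and Nr1d2, batch 1 above and batch 2 below, each point 1 library coloured by group. Per2 declines with RIN in batch 1 across and within groups, and in batch 2 Nr1d2, Clock and Cry2 are lower in all 6 libraries of RIN under 3 than in the 12 others.

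How the clock genes varied together was described with each batch and group centred on its mean of log2 CPM. Over the 28 libraries of RIN 6 or above, the largest correlation of the 45 pairs was between Per2 and Cry2 (r = 0.844), followed by Cry1 and Cry2 (r = 0.665) and Cry1 and Clock (r = 0.515). With all 36 libraries these were 0.189, 0.239 and -0.032. Leaving out any 1 of the 36 moved them between 0.097 and 0.36, between 0.0998 and 0.37, and between -0.17 and 0.099. Leaving out any 1 of the 28 libraries kept Per2 and Cry2 between 0.795 and 0.873. The negative value of Arntl and Dbp (r = -0.487) rested on DEX library 27, without which it was -0.041. Without that library Cry1 and Arntl went from 0.358 to 0.807 and Cry2 and Arntl from 0.199 to 0.521. With all 36 libraries the leading pairs were Clock and Nr1d2 (r = 0.795), Cry2 and Nr1d2 (r = 0.703) and Cry2 and Clock (r = 0.684), the 3 genes that fell with low RIN. Arntl and Dbp gave r = -0.522, or -0.293 without DEX library 27. The points of a pair share library, depth and RIN. In DEX library 27 (RIN 7.5) Arntl was 3.95 CPM, the lowest of the 36 libraries, and Dbp 7.80 CPM, the highest. DEX library 12 (RIN 3.9) came next with 6.004 and 6.89 CPM. The largest ratio of Arntl CPM to Dbp CPM, 10.5, was in DEX library 26 (RIN 1.4), with 11.5 CPM of Arntl and 1.09 CPM of Dbp from 14 counts.

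**Figure D4:**
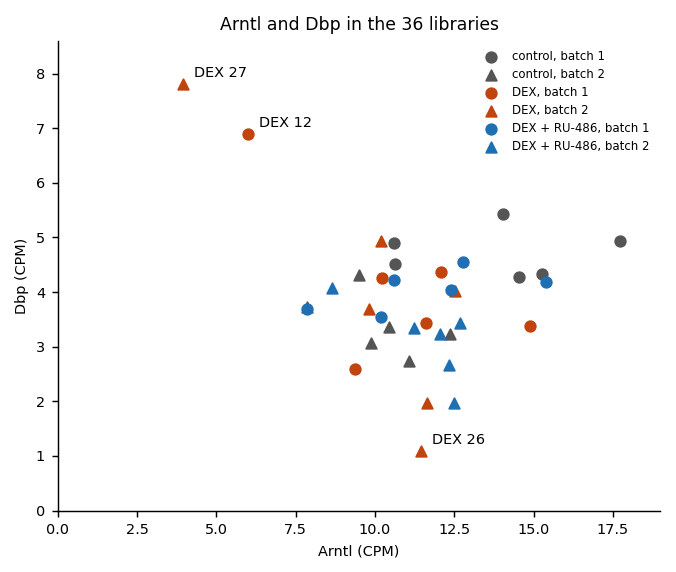
Dbp against Arntl (both CPM, linear axes from 0) in the 36 libraries, with circles for batch 1, triangles for batch 2 and colour for group. DEX libraries 27 and 12 lie apart at low Arntl and high Dbp, and DEX library 26 has the lowest Dbp.

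The other genes of the pathway were 21 clock and clock-linked genes that passed the filter on low counts. In DEX of batch 1, 3 rose: Per1, the glucocorticoid-responsive period gene (0.82 ± 0.20, edgeR adjusted p = 0.0076), Bhlhe41, an E-box repressor (0.98 ± 0.24, edgeR adjusted p = 0.0072), and Nfil3, which competes with DBP and TEF at D-boxes (0.61 ± 0.15, edgeR adjusted p = 0.0079). There 5 fell: Gsk3b, a kinase of clock proteins (-0.63 ± 0.11), Cipc, a repressor of CLOCK (-0.55 ± 0.11), Noct (nocturnin), a rhythmic phosphatase (-0.74 ± 0.18), Bhlhe40, the relative of Bhlhe41 (-0.69 ± 0.21), and Nampt, an enzyme of NAD synthesis (-0.39 ± 0.12). These are 3 and 5 of 21, against the 9.61% and 10.2% of all genes given above. Bhlhe40 and Bhlhe41 thus went in opposite directions. With DEX + RU-486 the same 3 rose (Per1 0.76 ± 0.20, Bhlhe41 0.83 ± 0.24, Nfil3 0.55 ± 0.15) and Gsk3b (-0.56 ± 0.11), Cipc (-0.55 ± 0.11) and Noct (-0.54 ± 0.17) fell. In that comparison 7.72% of all genes were called higher and 8.77% lower. With RIN as a covariate 0 rose and 1 fell in each comparison, where 0.881% of all genes were called higher and 1.6% lower in DEX, and 0.865% and 1.84% in DEX + RU-486. In batch 2 and over both batches edgeR called 0 of 21 in any of the 3 comparisons when all libraries were kept. Over both batches DESeq2 called 1 higher and 1 lower in DEX and 1 higher in DEX + RU-486 against control. Of all 20355 genes it called 234 higher and 223 lower in DEX, and 47 higher and 74 lower in DEX + RU-486. Among the libraries of RIN 6 or above, over both batches, 3 were higher and 5 lower in DEX, where 8.06% of all genes were called higher and 12% lower, and 1 was higher and 4 lower in DEX + RU-486 against control, where 3.09% and 6% were. In batch 2 alone at this RIN 1 of 21 was lower in DEX against control, as were 49 of all 20652 genes. In DEX + RU-486 against DEX 1 of 21 was higher, as were 154 of the 20652. With RIN as a covariate over both batches 1 was higher and 2 lower in DEX, where 0.919% of all genes were called higher and 1.32% lower. Between untreated batches, Per1 (0.54 ± 0.17) and Bhlhe41 (1.01 ± 0.21) were higher in batch 2 and Bhlhe40 (-0.94 ± 0.27), Cipc (-0.54 ± 0.13) and Gsk3b (-0.46 ± 0.11) lower. There 23.7% of all genes were called, 2439 of them higher and 2392 lower. Between low and high RIN in batch 2, Noct (0.86 ± 0.11), Nfil3 (0.56 ± 0.11) and Wee1 (0.94 ± 0.33) were higher, and Bhlhe40 (-0.95 ± 0.16), Btrc (-0.72 ± 0.11), Nampt (-0.66 ± 0.14) and Gsk3b (-0.25 ± 0.08) lower. These 3 higher and 4 lower of 21 stand beside 30.5% of all genes called higher and 25.7% lower. The counts were 6 and 3 with RLE factors (7202 and 5115 of all 21682 genes) and 6 and 4 with DESeq2 (7582 and 5486).

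The established glucocorticoid receptor targets Tsc22d3 and Fkbp5 were read as a check of the treatment. Tsc22d3 (GILZ) was 0.69 ± 0.22 higher in DEX in batch 1 (edgeR adjusted p = 0.031) and -0.05 ± 0.23 in batch 2. In DEX + RU-486 of batch 1 it was 0.62 ± 0.22 above control (edgeR adjusted p = 0.055) and -0.07 ± 0.22 from DEX. Its level in untreated cells was 0.89 ± 0.22 higher in batch 2 than in batch 1. Fkbp5 was -0.04 ± 0.20 in batch 1 and 0.18 ± 0.25 in batch 2, and neither passed. Of these genes only Tsc22d3 in batch 1 passed for DEX, in a comparison that called 9.61% of all genes higher. There RIN, depth and cell type markers went with treatment, and the antagonist group did not differ from DEX. The rise therefore cannot be credited to the receptor by these values. Neither gene passed in batch 2. Both moved with RIN in batch 2: at low RIN Tsc22d3 was -0.70 ± 0.12 (edgeR adjusted p = 4.9e-05) and Fkbp5 0.75 ± 0.12 (edgeR adjusted p = 1.6e-05).

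The clock gene with the smallest p for DEX over both batches was Tef, and the genes outside the clock list whose levels were most like its own were found by Pearson's r over the 36 libraries, with the mean of each batch removed. They were Ncoa1 (r = 0.833), Kcnk9 (r = 0.809), Slc6a11 (r = 0.808), Inpp4a (r = 0.801) and Fam171a1 (r = 0.794). The points share library, RIN and group.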

How the data were processed

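The authors deposited 1 table of counts, whole numbers of reads per gene and library without normalization. The submitters' processing notes name HISAT2 2.1.0, Subread 1.5.0-p2 and GRCm38. Which of the alignments in the methods the table holds, and whether strand was used, is not given in the sources used here. The labels give poly(A) selection and the methods a total RNA library. Symbols and exon lengths came from GENCODE M21 (55227 of 55492 identifiers matched).

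Genes with a mean above 5 counts were tested with edgeR 4.0.16 (R 4.3.3; TMM factors, quasi-likelihood, 3 groups per fit), over both batches with batch as a covariate and in each batch, with Benjamini-Hochberg adjustment over all tested genes. The SE is the log2 fold change divided by the square root of F. CPM used TMM factors over 36 libraries, log2 CPM a prior count of 2, and RPKM divided CPM by exon length. Permutations used numpy 2.4.6 and scipy 1.17.1. DESeq2 1.42.0 and the other settings are given in the closing section.

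All 10 clock genes are named. Other clock and clock-linked genes are named where they had an adjusted p under 0.05 as first fitted with edgeR. Under alternative settings those genes are only counted. Markers of cell types are counted and not named. A further gene of the clock list is not reported here. The members and lists were chosen with earlier results of these data known. No label says that libraries came from separate animals, so p-values measure the spread between libraries, which may be technical.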

Additional observations from a re-analysis of the deposited data

Results flagged for a closer look

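In each of 60 sets of 6 libraries (10 genes, 3 groups, 2 batches), the library farthest out was compared with the rest by Dixon's ratio on log2 CPM against its 95% critical value. Chance marks about 1 set in 20, and 9 were marked. Of these 9 values, 5 came from libraries of RIN under 3. Control library 20 (RIN 1.8) held 31.3 CPM of Per2, with the next library at 18.7. Control library 19 (RIN 2.7) held 39.2 CPM of Tef, below the next at 52.8, and 11.8 CPM of Nr1d1, above the next at 7.55. DEX + RU-486 library 31 (RIN 1.5) held 8.64 CPM of Arntl and 2.23 CPM of Nr1d2, below the next at 11.2 and 7.37. The other 4 came from libraries of RIN 6 or above. DEX library 27 (RIN 7.5) held 3.95 CPM of Arntl, below the next at 9.83. DEX + RU-486 library 13 (RIN 6.6) held 32.7 CPM of Cry1, above the next at 18.9. DEX + RU-486 library 15 (RIN 7.3) held 8.67 CPM of Nr1d2, below the next at 11.1, and control library 3 (RIN 8.5) held 5.84 CPM of Nr1d1, below the next at 6.81.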

How the results depend on the processing

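No paired analysis was possible because the replicate numbers in the labels run from 1 to 36 and no number occurs in more than 1 group. Of 620 values of clock genes under alternative settings other than leaving out 1 library, 558 kept direction and side of the threshold, 15 newly passed, 4 no longer passed and 43 reversed; no called value reversed. The number of clock genes called for DEX was 3 in batch 1. It was 4 with DESeq2 (Cry2 added, 4587 of 19075 genes called) and 4 with RIN 6 or above (Cry2 added, 3876 of 19196). It was 3 to 4 with 1 library left out (2688 to 4435 genes called) and 1 with RIN as a covariate (Clock, 473 genes called). Over both batches it was 0, but 1 with DESeq2 (Tef), 2 with RIN 6 or above (Per2 and Tef) and 1 with RIN as a covariate (Tef). For DEX + RU-486 against control it was 3 in batch 1 and 1 with RIN as a covariate (Per2), and over both batches 0, but 1 with DESeq2 (Per2), 2 with RIN 6 or above and 2 with RIN as a covariate (Per2 and Cry2 in both). Between control batches it was 1, but 2 with RIN 6 or above (Tef and Nr1d2, with 6591 of 20016 genes called) and 3 with the control libraries only (6260 of 21510). For the batch difference in DEX it was 0, but 1 with RIN 6 or above (Clock). Leaving out 1 library at a time gave 0 to 2 for DEX and 0 to 1 for DEX + RU-486 against control over both batches, and the highest count of each came without control library 20.

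Over all genes, DEX over both batches had 5 calls, against 457 with DESeq2, 4010 with RIN 6 or above, 455 with RIN as a covariate, 0 without the batch covariate, 1 with the compared groups only and 1630, 325 and 51 without control library 20, control library 19 or DEX library 26. Leaving out DEX + RU-486 library 18, 31 or 35 gave 11, 13 and 10, and 0 were left without any 1 of control libraries 1 to 6, 23 and 24 or DEX libraries 12 and 25. Over both batches DEX + RU-486 against control had 0 calls, against 121, 1819 and 155 in the first 3 of these and 425 without control library 20. In batch 1 DEX had 3773 calls and 473 with RIN as a covariate, and DEX + RU-486 had 3145 and 516, falling to 1839 without control library 2 and by over 1.5 times also without control library 5 or DEX + RU-486 library 18. In batch 2 with RIN 6 or above DEX had 116, DEX + RU-486 against control 1 and against DEX 314. The batch difference had 35 calls for DEX, 361 with DESeq2 and 775 with RIN 6 or above, and 17, 317 and 344 for DEX + RU-486 against control. The cause of these shifts was not tested.

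The log2 fold changes that reversed were all small as first fitted, at most 0.30 in size. With RIN as a covariate, Arntl was 0.0075 in batch 1 for DEX + RU-486 against control. Cry1 was 0.018 and Dbp 0.063 in batch 1 for DEX + RU-486 against DEX. Nr1d1 was 0.016 in batch 2 for DEX + RU-486 against DEX. Nr1d1 was 0.024, Nr1d2 0.051 and Tef -0.00039 in batch 2 for DEX + RU-486 against control. Nr1d2 was 0.043 in batch 2 for DEX against control. Nr1d2 was 0.24 over both batches for DEX against control. With RIN 6 or above, Arntl was 0.013 over both batches for DEX + RU-486 against control. Cry1 was -0.011 and Per3 0.33 for the batch difference in DEX against control. Cry2 was 0.13 and Nr1d1 0.10 for the batch difference in DEX + RU-486 against DEX. Dbp was 0.17, Nr1d1 -0.032 and Per3 -0.0025 in batch 1 for DEX + RU-486 against DEX. Dbp was -0.010, Nr1d1 0.028 and Nr1d2 0.049 over both batches for DEX against control. Dbp was -0.093 and Nr1d1 0.11 for the batch difference in DEX + RU-486 against control. Nr1d1 was 0.089 and Nr1d2 -0.058 in batch 2 for DEX + RU-486 against DEX. Nr1d1 was 0.12, Per3 0.023 and Tef -0.0054 in batch 2 for DEX + RU-486 against control. Nr1d1 was 0.067 in batch 1 for DEX against control. Nr1d1 was -0.11 for control batches. With DESeq2, Arntl was 0.033 for low against high RIN. Cry1 was 0.044 and Per3 0.085 for control batches. Nr1d1 was 0.020 and Nr1d2 0.011 over both batches for DEX against control. Tef was -0.0046 in batch 2 for DEX + RU-486 against control. With RLE factors, Arntl was 0.033 for low against high RIN. Nr1d1 was 0.018 and Nr1d2 0.010 over both batches for DEX against control. Tef was -0.0050 in batch 2 for DEX + RU-486 against control. Without the filter, Cry1 was 0.012 in batch 1 for DEX + RU-486 against DEX. Nr1d1 was 0.0054 in batch 2 for DEX + RU-486 against control. Nr1d2 was -0.076 in batch 1 for DEX against control. Without the batch covariate, Dbp was -0.0098 over both batches for DEX against control.

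Leaving out 1 library at a time, those that reversed ranged as follows. Arntl ranged from -0.025 to 0.22, Cry1 -0.23 to 0.24, Dbp -0.16 to 0.15 and Per3 -0.092 to 0.093 in batch 1 for DEX + RU-486 against DEX. Arntl ranged from -0.076 to 0.018 over both batches for DEX + RU-486 against control. Arntl ranged from -0.095 to 0.14, Clock -0.0091 to 0.25, Cry1 -0.098 to 0.059, Cry2 -0.0096 to 0.15, Dbp -0.095 to 0.42, Nr1d1 -0.12 to 0.21 and Nr1d2 -0.26 to 0.16 in batch 2 for DEX against control. Clock ranged from -0.23 to 0.015, Nr1d1 -0.15 to 0.12 and Nr1d2 -0.17 to 0.24 in batch 2 for DEX + RU-486 against DEX. Clock ranged from -0.0048 to 0.12 and Cry1 -0.18 to 0.029 over both batches for DEX + RU-486 against DEX. Clock ranged from -0.10 to 0.13, Nr1d1 -0.11 to 0.17, Nr1d2 -0.18 to 0.19, Per3 -0.26 to 0.15 and Tef -0.068 to 0.043 in batch 2 for DEX + RU-486 against control. Dbp ranged from -0.13 to 0.10, Nr1d1 -0.10 to 0.072 and Nr1d2 -0.15 to 0.050 over both batches for DEX against control. Nr1d1 ranged from -0.095 to 0.072 and Nr1d2 -0.10 to 0.14 in batch 1 for DEX against control. The lowest count behind a clock gene value was 14 (Dbp in DEX library 26).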
